A study of Canis lupus familiaris with 4 samples.

Results

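The genes described here encode components of TGF-beta and bone morphogenetic protein (BMP) signalling: the ligands TGFB1, TGFB2, TGFB3, INHBA and BMP4, the receptors TGFBR1 and TGFBR2, the intracellular inhibitor SMAD7, and the target genes TGFBI and ID1. Members were the non-control probes whose gene name, or the symbol in brackets in the description, was one of these 10 symbols. In all, 9 of the 10 genes had a probe by this rule, with 18 probes among 43603 on the array, and all 18 passed the filter on dim probes. ID1 had no such probe and was not analysed here.

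Total RNA was hybridised to 2-colour Agilent arrays from 2 canine mammary cancer cell lines, P114 and CMT-U27. From both lines, rare cells carrying Sca1, EpCAM and CD44 on their surface had been collected by flow cytometry as stem-like cells. They were profiled at day 3, either kept alone (single culture) or together with tumour-associated macrophages (co-culture). Each of the 4 arrays carried the co-culture of a line in one dye and its single culture in the other. The second array of a line had the dyes swapped, so n = 2 arrays per line. The labels name a single cell line for each group and call the arrays biological replicates. They do not state separate cultures or RNA extracts, so p-values may measure technical spread, and they do not state whether the macrophages were removed before RNA was taken.

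TGF-beta and activin ligands bind pairs of type II and type I receptor kinases, which phosphorylate SMAD2 and SMAD3. These enter the nucleus with SMAD4 and change transcription, while BMP ligands act in the same way through SMAD1, SMAD5 and SMAD9. In mammary epithelium TGF-beta restrains growth and, in tumour cells, can promote the epithelial-mesenchymal transition, and macrophages are a known source of the ligands.

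Each probe is a single sequence of 60 bases. The TGFB2 and TGFB3 probes below belong to a pair of related ligands. They are shown because these were the member probes of different genes with the longest run in common, 11 bases, printed in capitals. The TGFB2 probe lies on the plus strand of chromosome 38 from 13509865 to 13509924, and the TGFB3 probe on the minus strand of chromosome 8 from 48924064 to 48924123. Positions here and below are those the files give for the canine assembly CanFam3.1. No gene model of that assembly was used, so exons and untranslated regions were not assigned.
TGFB2: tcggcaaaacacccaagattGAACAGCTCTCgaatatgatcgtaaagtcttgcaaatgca
TGFB3: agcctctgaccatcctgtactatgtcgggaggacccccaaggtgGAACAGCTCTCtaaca

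The next 3 probes measured the genes with the widest gaps between the lines among ligands and receptors, and each has a reading frame without a stop codon over its length. The TGFBR2 probe is on the minus strand of chromosome 23 from 13905589 to 13905648, and the other 2 TGFBR2 probes lie on the same strand from 13887178 to 13887237 and from 13888180 to 13888239. The BMP4 probe is on the minus strand of chromosome 8 from 29997839 to 29997898. The INHBA probe is on the plus strand of chromosome 18 from 8283711 to 8283770.
TGFBR2: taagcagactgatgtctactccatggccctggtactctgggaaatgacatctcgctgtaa
BMP4: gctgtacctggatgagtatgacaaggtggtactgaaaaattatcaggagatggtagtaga
INHBA: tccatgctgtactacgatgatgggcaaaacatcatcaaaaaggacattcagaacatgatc

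P114 replicate 1 stood apart from the other arrays. On it 89.4% of spots in the co-culture channel and 91.7% in the single-culture channel were well above background, against 57.9% to 65.7% in the channels of the other 3 arrays. The 2 P114 arrays correlated at r = -0.15 (rho = -0.20) over the 28692 tested probes in their ratio of co-culture to single culture, and the 2 CMT-U27 arrays at r = 0.05 (rho = -0.01), as a description across probes that share a slide. Epithelial markers were well above background in all channels for 10 of 10 genes on the array. EPCAM, used in the sort, was higher in CMT-U27 by 2.66 on the log2 scale (limma adjusted p = 0.000746), and CD44, also used, was lower by its brightest probe (-1.78, adjusted p = 0.00155). Of the 3 CD44 probes 1 passed, in a range from -1.78 to -0.11. Of 18 macrophage markers, 17 were well above background in both channels of P114 replicate 1, 6 in both channels of P114 replicate 2, and 2 to 5 in the CMT-U27 channels. In both CMT-U27 arrays that number was larger in the co-culture channel, 5 against 2 and 5 against 4. The shares of all spots well above background in these channels were 65.7% against 57.9% and 60.9% against 64.5%. Summed macrophage marker intensity, co-culture against single culture, was 3120 against 3011 and 3274 against 3205 in CMT-U27. In P114 it was 3877 against 3989 and 3184 against 3437. The part of macrophage RNA in the ratios below was not tested. In bulk RNA, fewer cells of a type and less RNA per cell cannot be told apart.

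The first comparison asked how the stem-like cells of the 2 lines differed in these genes without macrophages. In single culture P114 cells had more TGFBR2 RNA than CMT-U27 cells by 3 of 3 probes, more BMP4 and INHBA by the 1 probe of each, and more TGFB1 by 1 of 4 probes. CMT-U27 cells had more TGFBI and TGFB2, each by 1 of 2 probes. In a limma fit of the separate channels, 8 of 18 member probes passed a Benjamini-Hochberg adjusted p of 0.05, against 15.2% of all tested probes. Of the 8, 6 were higher in P114 (7.02% of all probes) and 2 in CMT-U27 (8.23% of all probes). Over all 4 channels of each line, both cultures included, 12 member probes were higher in every P114 channel and 4 in every CMT-U27 channel, where 24.9% and 29.2% of all probes did so. By the headers, the arrays of each line were scanned together and those of the other line in a second scan, so line and scan cannot be told apart. Without normalization between arrays 0 of 28692 probes passed, members included. TGFBR2 then stood at -3.09, BMP4 at -2.38, INHBA at -2.11, TGFB1 at -0.82 and TGFBI at 2.78. Without P114 replicate 1, the array that stood apart, 17 member probes passed, beside 47.9% of all probes. Without P114 replicate 2, CMT-U27 replicate 1 and CMT-U27 replicate 2 there were 15, 12 and 13, beside 61.0%, 21.8% and 19.4%. Without a dye term 15 passed, beside 32.8%. The rise in these fits was thus not confined to the members. Across the fits that left out 1 array TGFBR2 ranged from -3.05 to -2.97, BMP4 from -2.71 to -2.52, INHBA from -2.48 to -2.29, TGFB1 from -1.14 to -1.04 and TGFBI from 2.34 to 2.57.

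**Figure D1:**
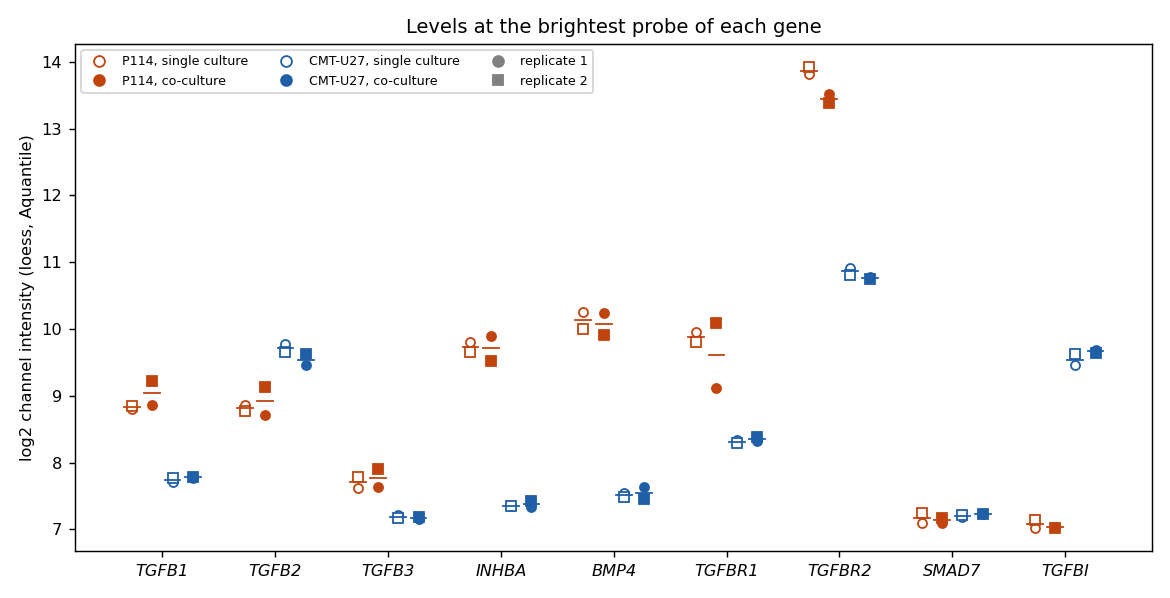
Normalized log2 channel intensity at the brightest tested probe of each of the 9 genes; circles are replicate 1, squares replicate 2, and short lines the mean of 2 arrays, with single culture open and co-culture filled. TGFBR2, BMP4, INHBA and TGFB1 lie higher in both cultures of P114, TGFBI lies higher in CMT-U27, and the SMAD7 points of the lines overlap; intensities of different genes are not comparable.

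Among the ligands, BMP4, which signals through the BMP receptors, had log2 intensities in single culture of 10.26 and 10.00 on the P114 arrays and 7.54 and 7.49 on the CMT-U27 arrays. The values of the lines were well separated, and the difference was -2.62 ± 0.19 (SE), CMT-U27 minus P114, or 6.13-fold (limma adjusted p = 0.00119). INHBA, whose product forms the subunit of activin A, read 9.80 and 9.66 in P114 and 7.35 and 7.34 in CMT-U27. All P114 values of INHBA lay above those of CMT-U27, by -2.39 ± 0.16 (SE), or 5.22-fold (adjusted p = 0.000905). The BMP4 and INHBA probes were well above background in all 8 channels, so both lines gave a measured level. The sizes depended on the processing. Without background correction the BMP4 and INHBA differences were -3.23 and -3.22, and by the scanner software's values -4.01 and -4.41. With median centring they were -2.51 and -2.22.

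TGFB1, the ligand most often studied in tumours, was measured by 4 probes. At its brightest probe the P114 arrays read 8.80 and 8.85 and the CMT-U27 arrays 7.71 and 7.77. P114 was higher on both arrays, by -1.09 ± 0.21 (SE), or 2.13-fold (limma adjusted p = 0.0239). Another 2 probes gave -1.05 (adjusted p = 0.172) and -0.82 (adjusted p = 0.227), with the same direction but not past the threshold. The last TGFB1 probe lies on the plus strand of chromosome 1 from 112627500 to 112627559, ahead of the others, which lie between 112637036 and 112644673. It gave -0.40 (adjusted p = 0.161), and whether it reads TGFB1 is uncertain.

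TGFB2, which acts on the same receptors and depends more on the co-receptor TGFBR3 for binding, ran the other way. Its brightest probe read 8.87 and 8.78 in P114 and 9.77 and 9.66 in CMT-U27 in single culture, a difference of 0.89 with a 95% interval from -0.29 to 2.07 (limma adjusted p = 0.291). The second probe read 8.07 and 8.27 in P114 and 9.67 and 9.75 in CMT-U27. CMT-U27 was above P114 at both probes, and at the second by 1.54 ± 0.17 (SE), or 2.91-fold (adjusted p = 0.00384). TGFB3, the ligand whose probe is printed above beside that of TGFB2, read 7.62 and 7.79 in P114 and 7.21 and 7.17 in CMT-U27. Its difference of -0.51 (95% interval -0.95 to -0.08) had an adjusted p of 0.116. At the second TGFB3 probe, well above background in 2 of 4 CMT-U27 channels, the difference was -0.25 (adjusted p = 0.419) and the channels of the lines overlapped. By the scanner software's values the brightest TGFB3 probe passed, at -1.95 (limma adjusted p = 0.0292).

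Of the receptors, TGFBR2, the type II receptor that binds TGF-beta first, had the largest gap of the 9 genes at the brightest probes. That order did not hold without background correction or by the scanner software's values. With median centring TGFBR2 again had the widest gap, at -3.44, beside -2.51 for BMP4. Without background correction TGFBI (3.44), BMP4 (-3.23) and INHBA (-3.22) had wider gaps than TGFBR2 (-3.02). The P114 arrays read 13.82 and 13.92 in single culture and the CMT-U27 arrays 10.91 and 10.82. The gap was -3.01 ± 0.16 (SE), or 8.04-fold (limma adjusted p = 0.00052). The TGFBR2 probe at 13888180 gave 6.69-fold (adjusted p = 0.000516) and the one printed above 2.71-fold (adjusted p = 0.00581), so all 3 probes passed in the same direction with different sizes. TGFBR1, the type I kinase that TGFBR2 activates, read 9.96 and 9.81 in P114 and 8.33 and 8.29 in CMT-U27 at its brightest probe. The TGFBR1 difference of -1.57 had a 95% interval from -3.42 to 0.27 (adjusted p = 0.236), and its other probe gave -0.41 (adjusted p = 0.222). Both TGFBR1 probes were higher in all 4 channels of P114 but did not pass the test with the main processing. With median centring the brightest TGFBR1 probe passed (-1.76, limma adjusted p = 0.00487).

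SMAD7, the inhibitory SMAD that TGF-beta itself induces and that blocks the type I receptor, read 7.10 and 7.25 in P114 and 7.19 and 7.22 in CMT-U27. The SMAD7 values of the lines overlapped, and the difference was 0.03 with a 95% interval from -0.33 to 0.39 (adjusted p = 0.918). These values lie close to the background. In CMT-U27 the dim probes of SOST and MSTN, not well above background there, read 6.97 and 6.98 in single culture. By the scanner software's values the SMAD7 difference was 0.35 (limma adjusted p = 0.804), so equal levels are not established. TGFBI, a secreted matrix protein named for its induction by TGF-beta, read 7.02 and 7.15 in P114 and 9.46 and 9.62 in CMT-U27. CMT-U27 was 5.49-fold higher, by 2.46 ± 0.24 (SE, limma adjusted p = 0.0026). The size of the TGFBI difference depended on the processing. It was 3.44 without background correction, 5.57 by the scanner software's values and 1.85 with median centring. In P114 this TGFBI probe was well above background in 3 of 4 channels. The second TGFBI probe, above background in 2 of 4 P114 channels, gave 0.76 (adjusted p = 0.075).

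The gaps between the lines were of like size in co-culture, where 9 of 18 member probes passed, against 15.4% of all probes: 6 were higher in P114 (6.64%) and 3 in CMT-U27 (8.79%). TGFBR2 stood at -2.69 (6.44-fold), BMP4 at -2.52 (5.75-fold), INHBA at -2.33 (5.04-fold), TGFB1 at -1.26 (2.40-fold) and TGFBI at 2.63 (6.21-fold). The second TGFBI probe passed in co-culture (0.90, limma adjusted p = 0.0457). Single culture and co-culture share arrays, and co-culture was added as a comparison after the data were seen.

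**Figure D2:**
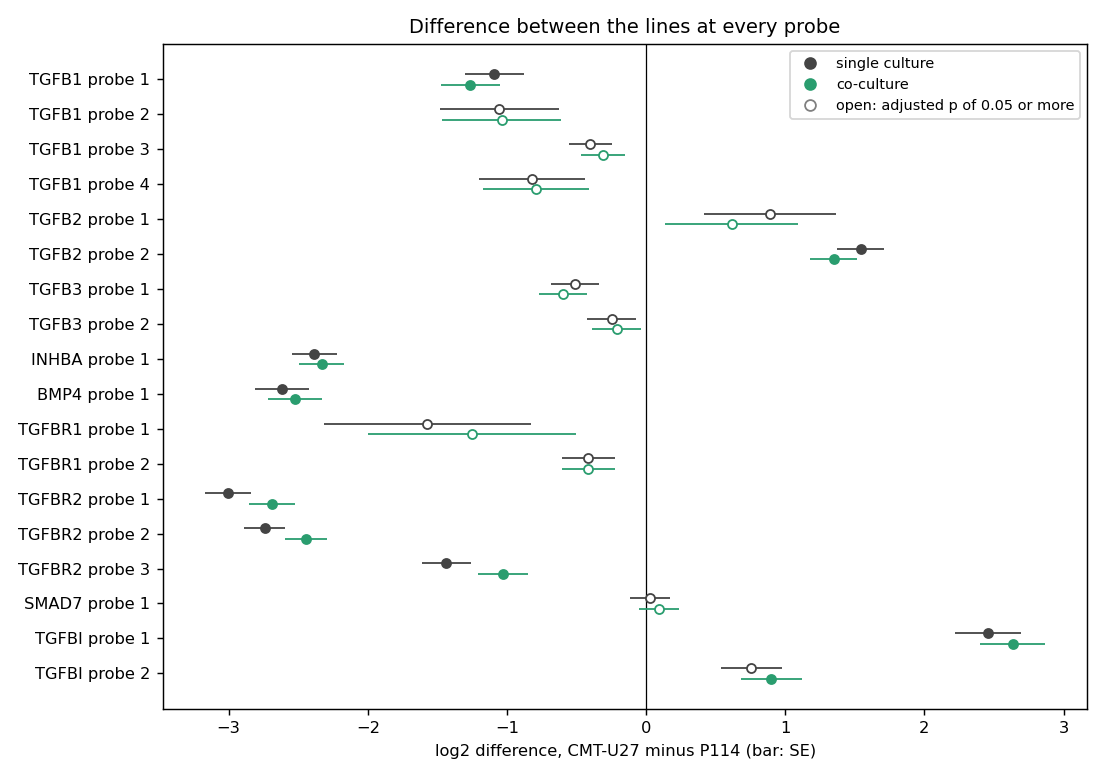
Log2 difference between the lines (CMT-U27 minus P114) at each of the 18 probes, with the standard error as bars; grey is single culture, green is co-culture, and filled points have an adjusted p under 0.05. Probe 1 of each gene is the brightest, and all 3 TGFBR2 probes are filled at -3.01, -2.74 and -1.44 in single culture.

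The second comparison asked what co-culture with macrophages did to these genes in each line. By the limma fit 0 of 28692 probes passed in P114 (0%) and 0 in CMT-U27 (0%), and so 0 of 18 member probes in either; 1758 and 928 probes had an unadjusted p under 0.05. At an unadjusted p under 0.05, 3 of 18 member probes were lower in P114, all of TGFBR2, where 2.34% of all probes were lower and 3.79% higher. In CMT-U27 0 of 18 member probes reached an unadjusted p of 0.05, where 2.31% of all probes were higher and 0.924% lower. Mean log2 ratios of the members ran from -0.42 to 0.22 in P114 and from -0.17 to 0.16 in CMT-U27. Both P114 arrays were above 0 at 3 member probes and below 0 at 5 (25.1% and 18.2% of all probes), and both CMT-U27 arrays at 8 and 4 (37.4% and 13.2%). At their brightest probes 3 of 9 genes were above 0 in P114, with a median of -0.03 against 0.01 over all tested probes, and 6 of 9 in CMT-U27, with a median of 0.03 against 0.02.

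**Figure D3:**
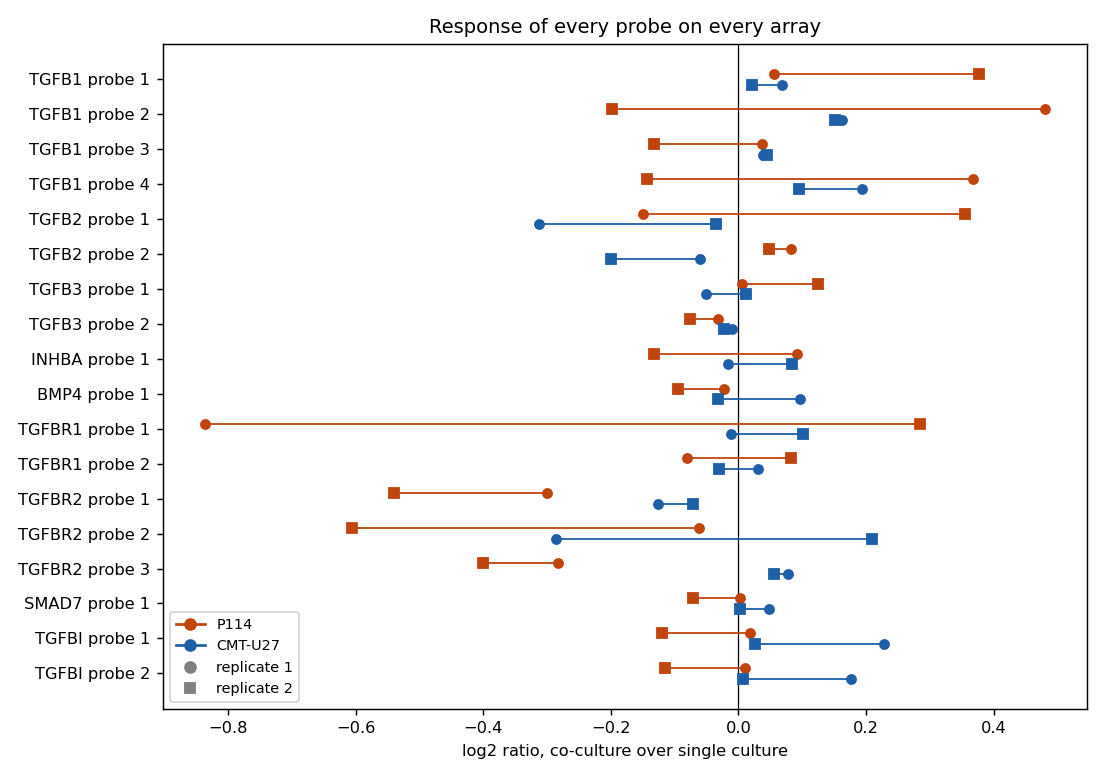
Log2 ratio of co-culture over single culture for each of the 18 probes on each array; orange is P114, blue is CMT-U27, circles are replicate 1, squares replicate 2, and a line joins the arrays of a line. The 3 TGFBR2 probes lie below 0 on both P114 arrays, and at TGFBR1 probe 1 the P114 arrays lie at -0.84 and 0.28.

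TGFBR2 had log2 ratios at its brightest probe of -0.30 and -0.54 on the P114 arrays and -0.13 and -0.07 on the CMT-U27 arrays. All 4 lay below 0, with the P114 arrays lower than the CMT-U27 arrays. The P114 mean was -0.42 ± 0.17 (SD, n = 2 arrays), a ratio of 0.748, with an unadjusted p of 0.00476 and a limma adjusted p of 0.797. These p-values do not measure that SD. The fit shares its spread between the lines, and its dye term can take up disagreement between dye-swapped arrays. The probe at 13888180 read -0.06 and -0.61 in P114 and -0.29 and 0.21 in CMT-U27. Its P114 SD was 0.38, beside a limma unadjusted p of 0.00684. The TGFBR2 probe printed above read -0.28 and -0.40 in P114 and 0.08 and 0.06 in CMT-U27. The 3 probes of this receptor measure the same RNA samples and are not replicates of each other.

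This difference in TGFBR2 depends on how the arrays are normalized. Loess sets each probe against others of the same brightness on its array. When arrays were instead centred on their medians, the brightest TGFBR2 probe read 0.53 and -0.50 in P114, with a mean of 0.02, and 1.0997 and 1.2906 in CMT-U27. The 1329 tested probes within 0.5 log2 units of its brightness had medians of 0.88 and -0.02 on the P114 arrays and 1.36 and 1.55 on the CMT-U27 arrays. TGFBR2 lay below that median on each array, and below 0 on 1 of 4. Under this centring all tested probes had a median of 0.16 in P114 and of 0.68 in CMT-U27, so the ratios there are to be read against those shifts. For CMT-U27, 10 member probes then passed, all higher in co-culture, beside 60.4% of all probes.

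**Figure D4:**
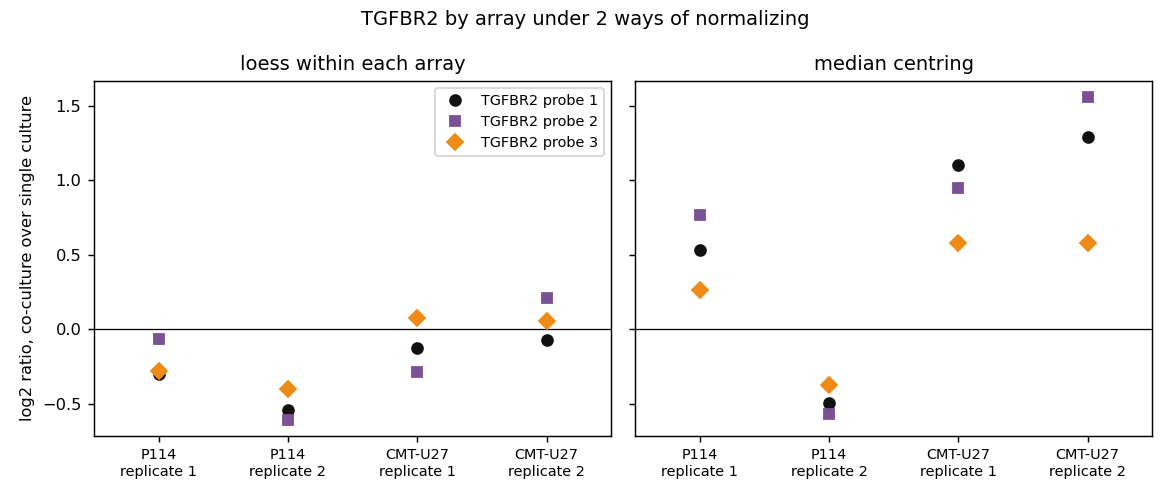
Log2 ratio of co-culture over single culture for the 3 TGFBR2 probes on each of the 4 arrays, after loess within each array (left) and after median centring (right). On the left all P114 values lie below 0; on the right only P114 replicate 2 lies below 0.

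No ligand passed the test in either line. TGFB1 read 0.06 and 0.38 in P114 and 0.07 and 0.02 in CMT-U27 at its brightest probe, above 0 on all 4 arrays. The P114 mean was 0.22 ± 0.23 (SD, n = 2), with a 95% interval from -0.01 to 0.44 (limma adjusted p = 0.797), and the other 3 TGFB1 probes had opposite signs on the P114 arrays. TGFB2 read -0.15 and 0.36 in P114 and -0.31 and -0.04 in CMT-U27. Its second probe read 0.08 and 0.05 in P114 and -0.06 and -0.20 in CMT-U27, so both probes were below 0 on both CMT-U27 arrays. TGFB3 read 0.01 and 0.12 in P114 and -0.05 and 0.01 in CMT-U27.

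INHBA read 0.09 and -0.13 in P114 and -0.02 and 0.08 in CMT-U27, so that the arrays of each line disagreed in sign. BMP4 read -0.02 and -0.09 in P114 and 0.10 and -0.03 in CMT-U27. For BMP4 the 95% intervals ran from -0.26 to 0.15 in P114 and from -0.17 to 0.24 in CMT-U27, and for INHBA from -0.21 to 0.17 and from -0.15 to 0.22. With median centring the P114 means of both were above 0, at 0.32 for BMP4 and 0.34 for INHBA.

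TGFBR1 read -0.84 and 0.28 in P114, the widest disagreement between arrays of any member, and -0.01 and 0.10 in CMT-U27. Its other probe read -0.08 and 0.08 in P114 and 0.03 and -0.03 in CMT-U27, so that the signs of the arrays disagreed in both lines. SMAD7 read 0.00 and -0.07 in P114 and 0.05 and 0.00 in CMT-U27, with 95% intervals from -0.22 to 0.15 and from -0.16 to 0.21. TGFBI read 0.02 and -0.12 in P114 and 0.23 and 0.03 in CMT-U27, and its second probe 0.01 and -0.11 in P114 and 0.18 and 0.01 in CMT-U27. Both TGFBI probes were above 0 on both CMT-U27 arrays, as were 37.4% of all probes.

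The third comparison asked whether the lines responded differently to the macrophages. No probe passed by limma (0 of 28692, 0%), and 821 had an unadjusted p under 0.05. At that unadjusted threshold 3 of 18 member probes, those of TGFBR2, were less negative in CMT-U27, where 2.06% of all probes lay in that direction and 0.802% in the other. The TGFBR2 difference of responses was 0.32 at the brightest probe (limma unadjusted p = 0.0348), 0.30 at the second (unadjusted p = 0.0307) and 0.41 at the third (unadjusted p = 0.0139), each with an adjusted p of 1. At 2 of 18 member probes, 1 of TGFBR2 and 1 of TGFB2, the arrays of P114 had one sign and those of CMT-U27 the other, as had 8.72% of all probes. For the other 8 genes the 95% intervals of the difference included 0 at every probe.

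Other genes of the pathway placed these members among their partners. Of 119 further genes listed by role, 98 were on the array and 88 were tested. In single culture 18 of the 88 were higher in P114 and 8 in CMT-U27 by limma at their brightest probes, where 7.02% and 8.23% of all probes were, so the count in CMT-U27 was near that of all probes. These 2 shares are also the background of the counts by role below. In the responses 0 of 88 passed in either line. These lists were chosen with earlier results of these data known, and line and scan cannot be told apart for them either.

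Among the 17 tested ligands, members included, 3 were higher in P114 at their brightest probes (BMP4, INHBA and TGFB1) and 0 in CMT-U27. The shares of all probes were 7.02% and 8.23%, and the median difference was -0.03 against 0.03 over all tested probes. TGFB1 passed at 1 of its 4 probes, and TGFB2 passed at its second probe as higher in CMT-U27. BMP2 and BMP7, which are osteogenic BMP ligands, stood at -0.33 (adjusted p = 0.29) and -1.02 (adjusted p = 0.0654), and GDF15, a stress-induced member of the family, at 0.09. Of the 4 BMP7 probes 1 passed as higher in P114, in a range from -1.02 to -0.39. INHBB, an activin and inhibin subunit gene, had ratios of -4.18 and 0.05 on the P114 arrays. The 2 INHBB values disagree by far more than those of any member, and its probe was well above background in P114 only on replicate 1.

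Among the 13 tested receptors, 3 were higher in P114 and 2 in CMT-U27 (7.02% and 8.23% of all probes), with a median of -0.09. Beside TGFBR2, P114 had more TGFBR3, the co-receptor that presents TGFB2 (-0.80, limma adjusted p = 0.0257), and more ACVR1, a type I receptor for BMP ligands (-0.64, adjusted p = 0.0274), each at its brightest probe. Of the 6 TGFBR3 probes 2 passed, in a range from -1.37 to -0.01, and of the 4 ACVR1 probes 2 passed, in a range from -0.89 to 0.11. CMT-U27 had more ACVR1B, an activin type I receptor (1.04, adjusted p = 0.0137), and more BMPR1B, a BMP type I receptor (0.90, adjusted p = 0.0185). ACVR2A stood at 0.52 (adjusted p = 0.0966), BMPR1A at 0.44 (adjusted p = 0.153) and BMPR2 at -0.09 (adjusted p = 0.859).

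Among the 19 tested SMADs and intracellular regulators, 2 were higher in CMT-U27 and 3 in P114 (8.23% and 7.02% of all probes), with a median of 0.04. SMAD2, which carries the TGF-beta and activin signal, stood at -1.29 (adjusted p = 0.0285) and SMAD1, which carries the BMP signal, at -0.72 (adjusted p = 0.0183), both higher in P114, as was the repressor SKI (-0.58, adjusted p = 0.0441). SMAD4, the shared partner, stood at 1.25 (adjusted p = 0.0104), and NEDD4L, a ubiquitin ligase that acts on activated SMADs, at 2.99 (adjusted p = 0.00389). SMAD6 stood at 0.09 and SKIL at -0.60, neither past the threshold. The other probe gave -0.10 for SMAD2, -0.18 for SKI and 0.54 for SMAD4, the 4 SMAD1 probes ranged from -0.72 to 0.33, and all 3 NEDD4L probes passed.

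Of 20 tested carriers, activators and antagonists outside the cell, 5 were higher in P114 and 1 in CMT-U27 (7.02% and 8.23% of all probes), with a median of -0.14. LTBP1, which binds latent TGF-beta in the matrix, stood at -3.38 (adjusted p = 0.0186) and FBN1, the fibrillin that anchors it, at -4.35 (adjusted p = 0.00227). Of the 5 FBN1 probes 4 passed, in a range from -4.35 to -0.53. NBL1, a BMP antagonist, stood at -3.84 (adjusted p = 0.000799), though its other probe gave -0.22, and HTRA1, a secreted protease, at -1.21 (adjusted p = 0.0317). FSTL1, a follistatin-like glycoprotein, was not well above background in single culture of CMT-U27 and was at least 4.07-fold higher in P114 (adjusted p = 0.000799). THBS1, an activator of latent TGF-beta, stood at -1.08 (adjusted p = 0.0626), with -0.24 at its other probe. BAMBI, a decoy receptor, stood at 1.02 (adjusted p = 0.00715), higher in CMT-U27, with 0.15 at its other probe.

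Of 24 tested TGF-beta target genes, 8 were higher in P114 and 2 in CMT-U27 (7.02% and 8.23% of all probes), with a median of -0.42 against 0.03 over all tested probes. FN1, which encodes fibronectin, stood at -5.58 ± 0.17 (SE), or 47.9-fold (adjusted p = 0.000159). Of its 5 probes 4 passed, and all 5 ranged from -5.58 to -0.32. SNAI2, a transcription factor of the epithelial-mesenchymal transition, was at least 10.8-fold higher in P114 (adjusted p = 0.000297). The collagen genes COL4A1 and COL1A2 stood at -3.44 (adjusted p = 0.000896) and -2.81 (adjusted p = 0.0004). TGFBI and PMEPA1, a feedback inhibitor of the pathway (0.84, adjusted p = 0.0141), were higher in CMT-U27, by 1 of 2 and 1 of 4 probes. Epithelial markers moved with the lines too, with 8 of 10 higher in CMT-U27 (median 2.33), and of 9 fibroblast markers 1, COL1A2, was higher in P114. The summed intensity of the fibroblast list was 21980 to 23610 in the P114 channels and 4460 to 5604 in the CMT-U27 channels. That sum was mostly COL1A2, at a log2 intensity of 14.35 in P114 and 11.54 in CMT-U27 in single culture, and the medians of the list, 7.27 to 7.51 and 7.27 to 7.30, overlapped. The summed intensity of the epithelial list was 19140 to 22160 in P114 and 122900 to 145400 in CMT-U27. Their part in the pathway differences was not tested.

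Of 12 tested BMP target genes, 3 were higher in CMT-U27 and 0 in P114 (8.23% and 7.02% of all probes), with a median of 0.14. SOX9, a transcription factor of epithelial progenitors, stood at 1.76 (adjusted p = 0.00434), HEY1, a Notch and BMP target, at 1.44 (adjusted p = 0.00647; 0.28 at its other probe), and BAMBI is counted here as well. ID3, a close relative of ID1, stood at -0.37 (adjusted p = 0.563) between the lines. In response to macrophages ID3 read 0.26 and -0.16 in P114 and 0.61 and 0.47 in CMT-U27, above 0 on both CMT-U27 arrays (unadjusted p = 0.0121, limma adjusted p = 1). ID3 did not stand alone. At an unadjusted p under 0.05, 5 of the 88 further genes were higher and 1 lower in CMT-U27, where 2.31% and 0.924% of all probes were. FN1 (limma unadjusted p = 0.00199), HEY1 (0.00535) and COL1A2 (0.00944) had smaller p-values there than ID3. In P114 6 were higher and 1 lower, where 3.79% and 2.34% of all probes were.

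**Figure D5:**
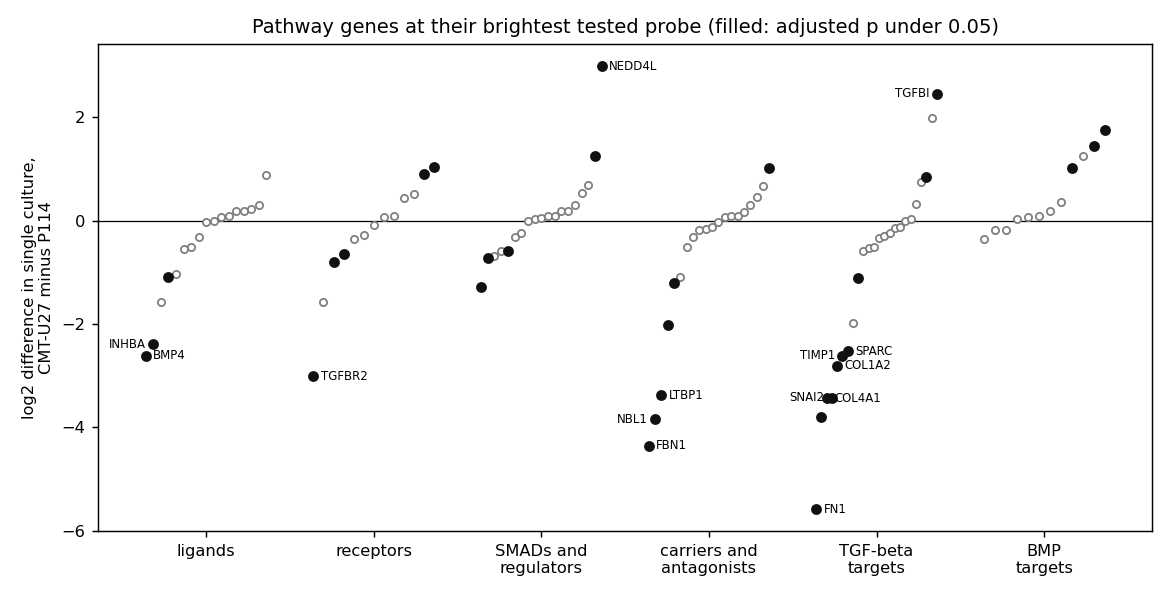
Log2 difference between the lines in single culture (CMT-U27 minus P114) for each tested pathway gene at its brightest probe, by role, ordered by value within a role; filled points have an adjusted p under 0.05, and a gene in 2 lists is drawn in both. The filled points of the carriers and of the TGF-beta targets lie mostly below 0, down to -5.58 at FN1.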

How the data were processed

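The authors deposited 1 scanner file per array, with unnormalized spot intensity on a linear scale and flags of 0 or 1. Their deposited log10 ratios of Cy5 over Cy3 equalled those of the scanner software. The file headers name Agilent Feature Extraction 10.10.1.1 and the submitters' processing notes 10.7.3.1. Direction was taken from the dye labels; if a line's labels were exchanged, its ratios would change sign.

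Mean intensities were corrected with normexp (offset 50) and loess within arrays, and spots of a probe were averaged. Levels were scaled with Aquantile. A probe was tested if, in some line and culture, both arrays had it well above background, which held for 28692 of 43603. Fits used limma 3.58.1 in R 4.3.3 and version 1.17.8 of data.table, with a coefficient per line and a dye term. The response fit had 1 residual and 2.76 prior degrees of freedom, and the line fit 3 and 2.69 with an intraspot correlation of 0.936. The 95% intervals come from these fits. Figures were drawn with matplotlib 3.10.9 in Python 3.11.15. The fits were tested on simulated data. Replicate numbers follow the record order and pair nothing.

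A bound given as "at least" sets the brighter mean against the higher of the dim probe's signal and the lowest signal well above background. Every member and probe was named, led by its brightest tested probe, with 24 fixed pathway genes and up to 4 further genes per list that passed, by smallest p. Of the 24, CTGF, ID2, SMAD3, NOG and FST had no matched probe. Of the rest, 1 is not reported here. Members and lists were chosen with earlier results of these data known. Precision is limited by the number of arrays, 2 per line. Alternatives changed the background correction, normalization, source of values, filters, dye term, probe summary and arrays.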

Additional observations from a re-analysis of the deposited data

Results flagged for a closer look

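At 2 member probes both P114 arrays lay on one side of 0 and both CMT-U27 arrays on the other, as did 8.72% of all tested probes. TGFBR2, at the probe whose sequence is printed above, had mean log2 ratios of co-culture over single culture of -0.34 in P114 and 0.07 in CMT-U27, a difference of 0.41. TGFB2, at its second probe, had 0.06 in P114 and -0.13 in CMT-U27, a difference of -0.19. The difference itself was tested by limma and had an adjusted p of 1 at both probes (unadjusted p = 0.0139 for TGFBR2 and 0.122 for TGFB2).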

How the results depend on the processing

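No member passed in the P114 response under any alternative run. With median centring 10 member probes passed in CMT-U27 and 6 in the difference of responses, beside 60.4% and 43.4% of all probes. Between the lines in single culture 8 member probes passed (15.2% of all probes), and 15 without the dye term (32.8%), 0 without normalization between arrays (0%), and 12 to 17 with 1 array left out (19.4% to 61.0%). Those fits kept the intraspot correlation of all 4 arrays, since it could not be estimated. Their counts of responses are not given, since a line then had a single array. The fits without an array dropped the dye term for responses. The cause of these shifts was not tested. The other alternatives kept each count within 1.5 times. Sizes of the line differences in single culture also changed with the processing. By the scanner software's values TGFBI stood at 5.57, INHBA at -4.41, BMP4 at -4.01 and TGFBR2 at -3.18.

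Signs turned for single genes as follows. With median centring the P114 response was 0.32 for BMP4, 0.34 for INHBA, 0.056 for TGFBR1 and 0.018 for TGFBR2. The CMT-U27 response was -0.10 for SMAD7, 0.94 for TGFB2 and 1.20 for TGFBR2, and the difference of responses -0.11 for BMP4, -0.29 for INHBA and 0.58 for TGFB2. Without background correction SMAD7 was 0.054 in P114 with a difference of -0.045, and in CMT-U27 TGFB3 was 0.028 and TGFBR1 -0.0255. By the scanner software's values and the series table alike, SMAD7 was 0.15 in P114, TGFB3 0.19 and TGFBR1 -0.050 in CMT-U27, and the differences -0.0025 for SMAD7 and 0.043 for TGFB3. By the median over probes the TGFB1 difference was 0.024. With 1 array left out, P114 responses ranged from -0.84 to 0.28 for TGFBR1, -0.13 to 0.092 for INHBA, -0.072 to 0.0027 for SMAD7, -0.15 to 0.36 for TGFB2 and -0.12 to 0.018 for TGFBI. CMT-U27 responses ranged from -0.031 to 0.097 for BMP4, -0.051 to 0.012 for TGFB3, -0.017 to 0.084 for INHBA and -0.012 to 0.10 for TGFBR1. Differences ranged from -0.24 to 0.88 for TGFBR1 and -0.059 to 0.165 for INHBA, and SMAD7 between the lines from -0.054 to 0.116. All are log2 values.

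The cultures of a line are paired within each array, and every response uses that pairing. No block across arrays was fitted, because the replicate numbers follow the record order.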
